A study of Mus musculus with 6 samples.

Results

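Basal6 is 1 of 8 basal clusters among the 16 clusters that the authors named in single-cell RNA sequencing (scRNA-Seq) of mouse airway epithelial cultures, and it is the cluster of cycling basal cells. Its members were taken from the deposited cell annotation: 816 of 23871 cells (3.42%), and 7.33% of the 11126 basal cells. The cultures came from the tracheas of 12-week-old C57BL/6 mice, 3 of them WT/WT and 3 MIS/MIS, which carry on both alleles a missense mutation of the dynein assembly factor gene *Dnaaf5* introduced with CRISPR/Cas9. Basal cells of each trachea were first expanded in culture and then differentiated at air-liquid interface (ALI) on supported membranes, so the cycling cells described here are those of a differentiated culture and not of the trachea itself. Each mouse gave 1 library, captured with the droplet 3′ chemistry that counts every RNA molecule once by its unique molecular identifier (UMI). The mice are called WT/WT 1, 2 and 3 and MIS/MIS MT1301, MT1306 and MT1383, as in the cell names.

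Basal cells sit on the basement membrane of the airway, renew themselves, and give rise to secretory and multiciliated cells. A cell that divides passes through G1, copies its DNA in S phase, and separates the copies in mitosis after G2. The genes for these steps are transcribed in waves: E2F factors drive the S phase genes, while the MuvB complex with B-MYB and FOXM1 drives the later genes through a promoter element called the CHR, often together with CCAAT boxes bound by NF-Y. Cyclins and their kinases (CDKs) push the cell forward, CDK inhibitors hold it back, and the anaphase-promoting complex (APC/C) destroys mitotic proteins.

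The 6 mice gave 55, 224 and 102 Basal6 cells in WT/WT and 198, 73 and 164 in MIS/MIS, with 2208885 to 8135640 UMIs in all per mouse. The median Basal6 cell held 32916 UMIs and 5754.5 genes. The study's methods removed cells with over 7500 genes as possible doublets, yet 50 Basal6 cells (6.13%) exceeded that number, against 2.74% of all cells, and no doublet caller was run here. Of 67 cell barcodes that occurred in more than 1 library, 4 were those of Basal6 cells. Values below are CPM, that is counts in 1000000 UMIs, of the summed cells of a cluster in each mouse, given as mean ± SD over the 6 mice. Because 1 tag is counted for each RNA molecule, CPM was not scaled by gene length.

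The 5 genes used here as markers of cycling cells, chosen with earlier results of these data known, were all highest in Basal6. *Mki67*, which coats mitotic chromosomes and is the usual marker of proliferation, stood at 248, 215 and 299.9 CPM in the WT/WT mice and at 222, 166 and 239 CPM in the MIS/MIS mice (232 ± 44.1, n = 6). The remaining 10310 basal cells averaged 0.973 CPM and the next cluster, Multiciliated2, 8.22 CPM, so the Basal6 level was 28.2-fold that of the next cluster. *Ube2c*, the ubiquitin-conjugating enzyme of the APC/C, measured 329, 405 and 536 CPM in WT/WT and 475, 313 and 473 CPM in MIS/MIS, against 1.40 CPM in the remaining basal cells. *Birc5*, which encodes survivin of the chromosomal passenger complex, measured 246, 198 and 272 CPM in WT/WT and 226, 189.9 and 284 CPM in MIS/MIS, against 0.904 CPM. *Nusap1*, a microtubule-binding spindle protein, measured 105, 100.5 and 154 CPM in WT/WT and 108, 96.3 and 139 CPM in MIS/MIS, against 0.136 CPM. *Hmmr*, a spindle-associated hyaluronan receptor, measured 164, 110.3 and 178 CPM in WT/WT and 106, 102 and 149 CPM in MIS/MIS, against 0.353 CPM. In every mouse each marker lay far above all other clusters, and for each of them the values of both genotypes overlapped. The cells were clustered on their expression, so these differences from other clusters describe the cluster and were not tested.

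**Figure D1:**
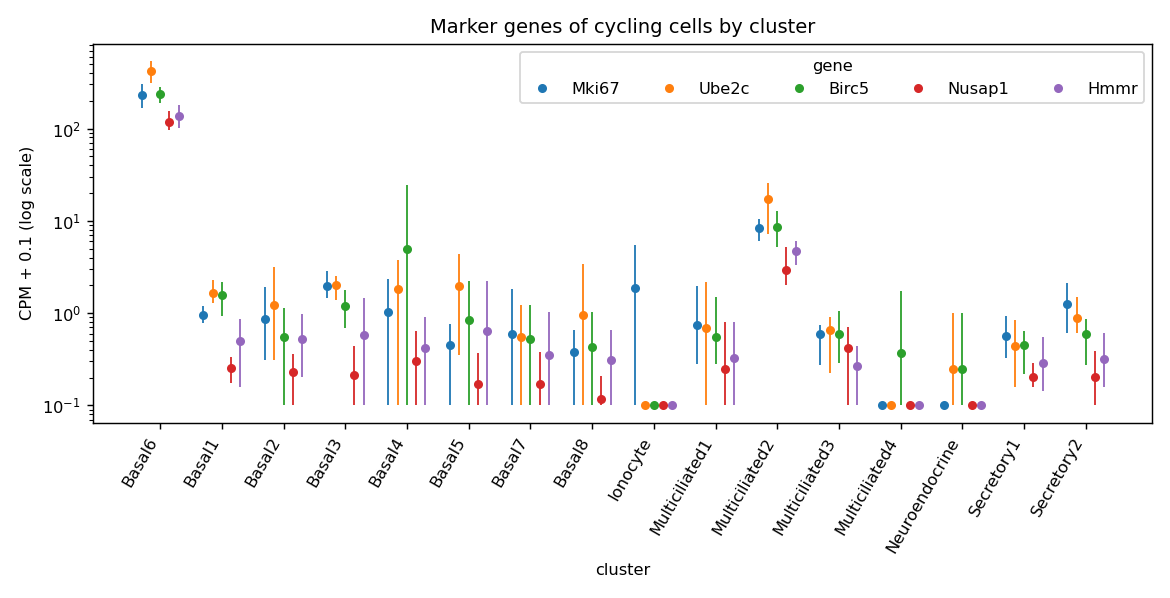
Level of *Mki67*, *Ube2c*, *Birc5*, *Nusap1* and *Hmmr* in each of the 16 clusters, as CPM + 0.1 on a log axis, with clusters along the horizontal axis. All 5 genes peak in Basal6, between 117 and 422 CPM on average, and Multiciliated2 is the next highest cluster for each.

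Not every cell of the cluster carried these transcripts. At full depth 73.0% of Basal6 cells held at least 1 *Mki67* UMI, against 2.17% of the remaining basal cells. When each cell was thinned to 10000 UMIs, which left out 11 shallower Basal6 cells (6 WT/WT and 5 MIS/MIS), the shares were 61.4% and 0.928%. In Multiciliated3, mature cells that should not divide, the thinned share was 0.494% and the full share 1.22%, at median depths of 26787 UMIs there and 33205 UMIs in Basal6 among the cells thinned. The thinned shares of the remaining basal cells and of Multiciliated3 were thus under 1%. In Basal3 alone the thinned share was 1.59%, and in Multiciliated2 it was 7.89%. At least 3 of the 5 markers were detected together in 659 cells, of which 517 (78.5%) were in Basal6 and 103 in Multiciliated2. These 517 cells made up 63.4% of Basal6, and 163 Basal6 cells held none of the 5 markers.

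Among genes of at least 50 CPM in Basal6, the 20 with the largest ratio to the highest other cluster were cell-cycle genes and replication-dependent histone genes. *Ccna2*, the cyclin A of S and G2 phase, came first at 73.9 ± 12.2 CPM, 45.8-fold its level in the next cluster. *Tk1*, thymidine kinase, stood at 85.5 ± 8.46 CPM (39.5-fold), and *Cdca3*, which triggers destruction of the mitosis inhibitor WEE1, at 29.9-fold the next cluster. The phosphatase gene *Cdkn3* (28.6-fold), the cyclin gene *Ccnb2* (14.95-fold), the APC/C inhibitor gene *Fbxo5* (17.9-fold) and the spindle pole gene *Aspm* (10.98-fold) were also among them. The ratio was 24.3-fold for *Hist1h2ap*, 16.9-fold for *Hist1h2ae* and 13.7-fold for the linker histone gene *Hist1h1b*. Most histone mRNAs of this kind lack a poly(A) tail and near-identical copies share reads, so their levels in poly(A)-primed libraries are uncertain. The rest of the 20 were the 5 markers (24.8-fold for *Ube2c* to 41.5-fold for *Nusap1*), *Ncapg2* of condensin (12.6-fold), the helicase subunit *Mcm5* (9.77-fold), the cohesin acetyltransferase *Esco2* (9.66-fold), the centromeric histone *Cenpa* (9.13-fold) and *Spc24* of the kinetochore (8.99-fold).

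Basal6 was then compared with the remaining basal cells over lists of genes by role. A gene was counted as higher where the log2 ratio of CPM + 1 was at least 1, that is 2-fold, in each of the 6 mice. Of 10161 genes with at least 5 CPM in either population, 459 (4.52%) were higher and 45 (0.443%) lower by this count, and the median log2 ratio of all genes was 0.01. These counts are descriptions, with no test.

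The machinery that opens replication origins was higher throughout. All 18 measured licensing genes passed the count, with a median log2 ratio of 2.97, and their summed level was 1105 CPM against 139 CPM. *Gmnn*, the inhibitor of relicensing, was the most abundant at 142 ± 6.57 CPM against 17.0 CPM, ahead of the helicase subunits *Mcm7* (134 ± 15.4 CPM) and *Mcm3* (114 ± 11.04 CPM). *Gins3*, a subunit of the GINS part of the replicative helicase, was the lowest at 5.92 ± 0.908 CPM against 0.812 CPM. *Mcm5* stood at 90.5, 92.1 and 99.97 CPM in WT/WT and at 111, 107 and 88.2 CPM in MIS/MIS, against 4.13 CPM in the remaining basal cells. All 6 mice thus lay within a narrow band for this gene.

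Of the DNA synthesis genes, 21 of 22 passed the count (median log2 ratio 2.79). *Pcna*, the sliding clamp of the polymerases, measured 303, 283 and 313 CPM in WT/WT and 351, 334 and 288 CPM in MIS/MIS, against 76.9 CPM in the remaining basal cells. *Pcna* was thus widespread outside Basal6 too: after thinning, 81.6% of Basal6 cells, 51.2% of the remaining basal cells and 48.3% of Multiciliated3 cells held a UMI of it, whereas *Mcm5* was found in 54.0%, 3.51% and 0.380%. *Lig1*, which seals Okazaki fragments, stood at 119 ± 10.1 CPM against 9.54 CPM. *Pold3*, a polymerase delta subunit, was the exception at 28.9 CPM against 13.5 CPM. Of the genes that supply nucleotides, 9 of 10 passed (median 2.71), led by *Dut*, which clears dUTP, at 339 ± 27.9 CPM against 73.2 CPM. *Rrm1*, the large subunit of ribonucleotide reductase, stood at 153 ± 16.6 CPM against 16.2 CPM, and *Gart* of purine synthesis was the gene that did not pass (42.4 against 24.5 CPM). Over the whole S phase list, 40 of 43 genes passed, with a summed level of 2776 CPM against 413 CPM.

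The cyclins divided by the step they serve. Of 18 cyclin, CDK and related genes, 12 passed, among them *Cdk1*, the mitotic kinase, at 254 ± 41.4 CPM against 3.11 CPM. *Cks2*, a CDK subunit, stood at 359 ± 58.6 CPM against 33.3 CPM, and *Ccne2*, a cyclin E of the G1 to S transition, at 14.7 ± 4.45 CPM against 0.791 CPM. The 6 that did not pass were the D cyclins *Ccnd1*, *Ccnd2* and *Ccnd3*, their kinases *Cdk4* and *Cdk6*, and the phosphatase gene *Cdc25a*. *Ccnd1* was the most abundant gene of the list at 399, 574 and 499.9 CPM in WT/WT and 606, 500.4 and 360.2 CPM in MIS/MIS, close to the 374 CPM of the remaining basal cells. *Ccnd2* averaged 466 CPM against 461 CPM. The D cyclins couple the cycle to growth signals, and none was 2-fold higher in Basal6 in every mouse.

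Among 7 CDK inhibitor genes, 1 was higher and 1 lower by the count. *Cdkn2d*, an inhibitor of CDK4 and CDK6, stood at 48.4 ± 13.6 CPM against 7.36 CPM. *Cdkn2b*, of the same INK4 family, measured 18.1, 17.3 and 16.96 CPM in WT/WT and 14.9, 12.8 and 17.2 CPM in MIS/MIS, against 54.1 CPM in the remaining basal cells (log2 ratio -1.66). *Cdkn1a*, the p21 gene that p53 induces, averaged 341 ± 89.1 CPM against 357 CPM and was highest in Multiciliated2. None of 11 measured p53 target genes passed in either direction (median 0.02). The same held for 14 genes of growth signals (median -0.13), in which *Hbegf*, an EGF receptor ligand, was the most abundant at 330 ± 48.6 CPM against 391 CPM. *Areg*, another EGF receptor ligand, averaged 258 ± 169 CPM and ranged from 86.8 CPM in MT1383 to 561 CPM in WT/WT 3.

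Of 18 measured RB, E2F, MYB and FOXM1 regulators, 8 passed (median 1.23). *Tfdp1*, the dimerization partner of E2F, was the most abundant at 75.0 ± 8.47 CPM against 24.2 CPM, and the pocket protein gene *Rbl1* stood at 32.5 ± 4.30 CPM against 5.23 CPM. *Mybl2*, which encodes B-MYB, was low, at 9.14 ± 2.08 CPM against 0.432 CPM. Only 7 of 21 APC/C and SCF genes passed, with a median of 0.83. They were *Ube2s*, *Ube2c*, *Cdc20*, *Fbxo5*, *Espl1*, *Anapc15* and *Skp2*, while the other core subunits did not. *Ube2s*, which extends ubiquitin chains on APC/C substrates, was the most abundant at 519 ± 64.0 CPM against 167 CPM, but *Anapc13*, a core subunit, stood at 199 CPM against 171 CPM.

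The lists of the mitotic machinery had the highest medians. All 4 chromosomal passenger genes passed (median 5.22): beside *Birc5*, *Cdca8* (borealin) averaged 107 ± 34.6 CPM against 1.84 CPM, *Incenp*, the scaffold of the complex, 87.2 ± 17.8 CPM against 4.02 CPM, and the kinase *Aurkb* 41.4 ± 7.75 CPM against 0.117 CPM. Of 27 kinetochore and centromere genes, 26 passed (median 3.98). *Cenpf*, a large kinetochore protein, measured 353, 293 and 356 CPM in WT/WT and 261, 267 and 438 CPM in MIS/MIS, against 2.77 CPM. It was thus highest in a MIS/MIS mouse and lowest in another of the same genotype. Of 25 spindle and kinesin genes, 24 passed (median 4.71), with *Prc1*, which bundles midzone microtubules, highest at 233 ± 41.3 CPM. *Kif3a*, a kinesin of intraflagellar transport rather than of the spindle, was the exception at 19.03 CPM against 22.1 CPM. All 8 cytokinesis genes passed (median 5.22), among them *Anln*, the anillin of the contractile ring, at 133 ± 22.5 CPM against 0.835 CPM.

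Of 10 chromosome condensation genes, 9 passed (median 4.37). *Top2a*, the topoisomerase that untangles sister chromatids, measured 390, 323 and 482 CPM in WT/WT and 376, 310.5 and 459.9 CPM in MIS/MIS, against 1.36 CPM. Of 10 spindle checkpoint genes, 8 passed (median 4.20). *Zwint*, which holds the checkpoint complex at kinetochores, did not, at 75.2 ± 4.36 CPM against 76.2 CPM, and neither did *Bub3* (184 against 82.7 CPM). Over the whole G2/M list, 52 of 54 genes passed with a median of 4.56, and the summed level was 8777 CPM against 1167 CPM. *Tubb4b*, a tubulin also used in cilia, was its most abundant gene at 1258 ± 172 CPM, and Multiciliated4 was higher for it. Of 18 measured replication-dependent histone genes, taken by symbol, 11 passed, with the same limit as above.

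**Figure D2:**
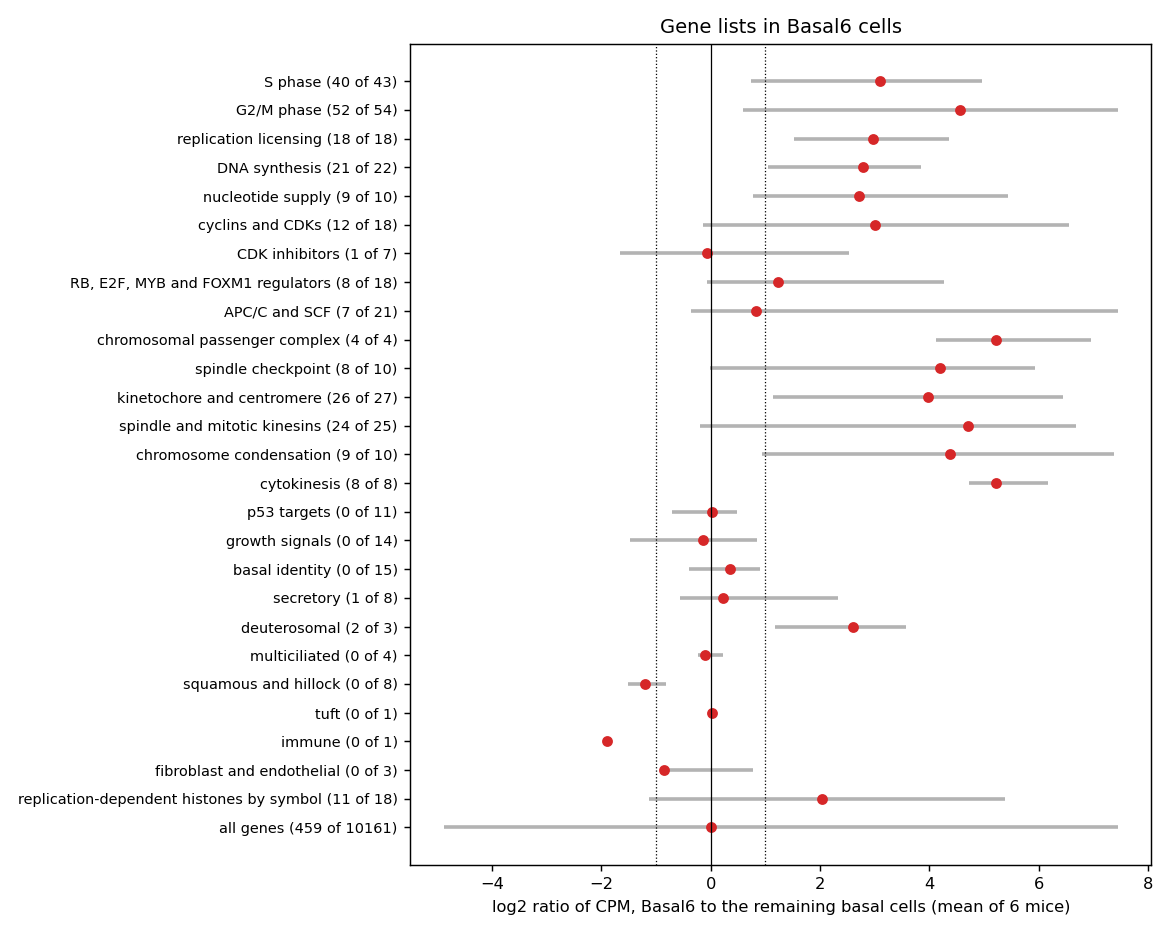
Log2 ratio of CPM + 1 of each measured gene of a list, Basal6 to the remaining basal cells, as the mean of 6 mice, with lists on the vertical axis and the count of genes at least 2-fold higher in every mouse beside each name. Mitotic lists lie highest, with medians of 5.22 for the passenger and cytokinesis genes, while p53 targets, growth signals and basal identity genes lie near 0.

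The authors' finer clustering divided Basal6 into 522 cells of a cluster numbered 14 and 294 cells of a cluster numbered 19. Median depth was alike, at 33498 and 31268 UMIs. Of 54 G2/M genes, 53 were higher in cluster 14 in each of the 6 mice, where 13.8% of all 10110 genes measured were, and 0 were higher in cluster 19, where 10.4% of all genes were. Of 43 S phase genes, 25 were higher in cluster 19 in every mouse and 4 in cluster 14. The finer clusters were themselves drawn from expression, so these counts describe them and were not tested. The genes named next were chosen for their ratio between the finer clusters after the values were seen. *Ube2c* averaged 638 CPM in cluster 14 and 7.87 CPM in cluster 19, and *Ccnb1*, the mitotic cyclin B, 186 and 3.15 CPM. In the other direction, *Ung*, which removes uracil from DNA, averaged 5.01 CPM in cluster 14 and 55.8 CPM in cluster 19, and the licensing factor gene *Cdc6* 9.24 and 26.2 CPM. The D cyclins also stood higher in cluster 19, *Ccnd2* at 706 CPM against 342 CPM and *Ccnd1* at 680 CPM against 390 CPM. The summed G2/M list stood at 12027 CPM in cluster 14 and 2458 CPM in cluster 19. The summed S phase list stood at 2396 CPM in cluster 14 and 3503 CPM in cluster 19, both above the 413 CPM of the remaining basal cells, so cluster 14 carried S phase transcripts beside the mitotic ones.

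At least 3 of the 5 markers were detected in 93.1% of the Basal6 cells of cluster 14 but in 10.5% of those of cluster 19. Cluster 19 also held 132 cells that the authors placed in Basal3, 7 of Secretory2, 5 of Basal1, 2 of Basal5 and 1 of Basal2, so its border with Basal3 was not sharp. Of the CDK inhibitor genes, 5 of 7 were higher in cluster 14 in every mouse, as were 8 of 12 p53 target genes. Of all 10110 genes measured, 13.8% were. These counts too describe finer clusters drawn from expression, and were not tested. In single thinned cells the G2/M list gave more UMIs than the S list in 544 of 800 cells (68.0%), leaving out 5 cells with equal numbers. That share was 96.7% in cluster 14 and 16.7% in cluster 19, and 40 of the 805 cells lay within 2 UMIs of equality. The balance is not a phase call, since the G2/M list holds abundant genes: among the remaining basal cells, at medians of 4 S and 11 G2/M UMIs, 96.1% also had more of the latter.

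**Figure D3:**
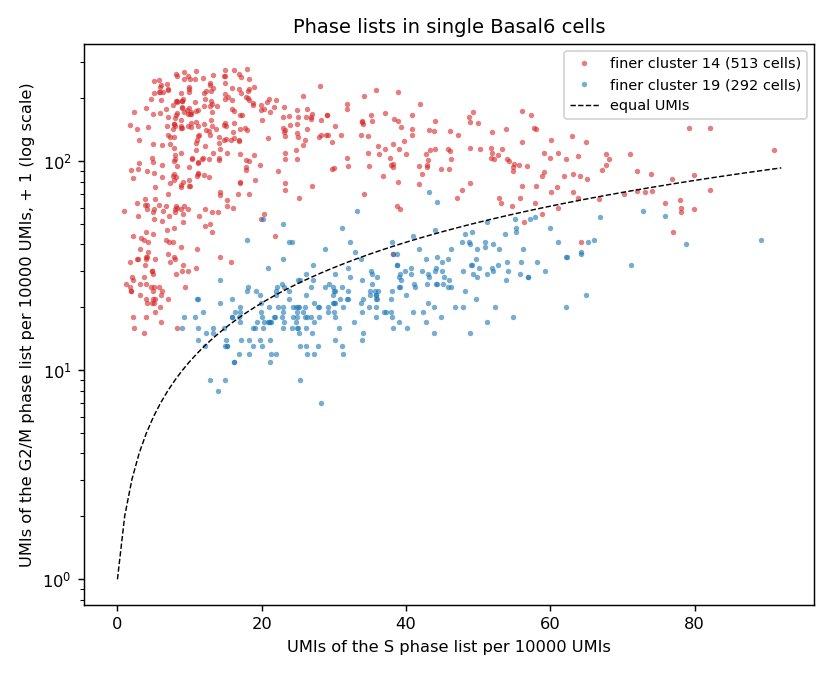
Each point is 1 of 805 Basal6 cells thinned to 10000 UMIs, with its UMIs of the S phase list on the horizontal axis and of the G2/M list, + 1, on a log vertical axis, and the dashed line marks equal UMIs. Cluster 14 cells mostly lie high (median 108 G2/M UMIs and 15 S UMIs) and cluster 19 cells low (22 and 32). Their G2/M UMIs overlap, at 14 to 274 in cluster 14 and 6 to 70 in cluster 19.

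Promoters of genes from both lists are shown as examples of the motifs counted over the whole lists, and were picked after their motifs were seen, *Mcm2* as an exception among the S phase genes. They are RefSeq start sites on build GRCm38.p6, from 170 bases before to 30 bases after the start, written 5′ to 3′ along the gene. Capitals mark the CHR, searched as TTTGAA or TTCGAA, the CCAAT box, searched as its name is written, and the E2F motif, searched as TTCCCGC or as TTGGCGC or as TTCGCGC. Both strands were searched, so the reverse complement of a motif is in capitals too, and E2F matches may overlap each other. The genes of the G2/M side are given first.
Mki67 (chr7:135716350-135716549, minus strand): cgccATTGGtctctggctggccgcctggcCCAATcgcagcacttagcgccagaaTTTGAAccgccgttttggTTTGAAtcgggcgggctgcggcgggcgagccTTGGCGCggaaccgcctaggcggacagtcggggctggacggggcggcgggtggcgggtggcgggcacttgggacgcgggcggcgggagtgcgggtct
Ube2c (chr2:164769759-164769958, plus strand): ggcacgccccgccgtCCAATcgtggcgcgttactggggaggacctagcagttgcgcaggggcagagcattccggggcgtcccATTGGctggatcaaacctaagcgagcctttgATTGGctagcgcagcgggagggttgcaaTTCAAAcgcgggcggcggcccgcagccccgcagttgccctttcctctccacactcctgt
Hmmr (chr11:40733408-40733607, minus strand): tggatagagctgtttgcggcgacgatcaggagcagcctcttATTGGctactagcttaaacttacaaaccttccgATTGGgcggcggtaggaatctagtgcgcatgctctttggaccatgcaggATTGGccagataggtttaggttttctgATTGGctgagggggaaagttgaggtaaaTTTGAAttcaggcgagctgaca
Ccnb2 (chr9:70421525-70421724, minus strand): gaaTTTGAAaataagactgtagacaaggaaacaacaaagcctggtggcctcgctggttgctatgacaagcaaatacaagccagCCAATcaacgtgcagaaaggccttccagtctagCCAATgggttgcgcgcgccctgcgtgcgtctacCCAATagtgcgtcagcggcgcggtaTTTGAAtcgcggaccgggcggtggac
Cenpf (chr1:189688057-189688256, minus strand): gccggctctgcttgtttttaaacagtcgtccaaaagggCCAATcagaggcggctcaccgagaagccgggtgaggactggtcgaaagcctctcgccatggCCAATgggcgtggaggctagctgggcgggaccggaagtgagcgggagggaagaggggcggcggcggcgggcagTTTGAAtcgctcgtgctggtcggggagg
The genes of the S phase side follow.
Mcm5 (chr8:75109339-75109538, plus strand): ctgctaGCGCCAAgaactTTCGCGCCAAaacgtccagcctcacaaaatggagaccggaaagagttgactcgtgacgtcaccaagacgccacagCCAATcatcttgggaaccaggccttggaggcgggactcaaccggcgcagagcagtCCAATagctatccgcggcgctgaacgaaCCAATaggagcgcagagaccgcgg
Mcm6 (chr1:128359676-128359875, minus strand): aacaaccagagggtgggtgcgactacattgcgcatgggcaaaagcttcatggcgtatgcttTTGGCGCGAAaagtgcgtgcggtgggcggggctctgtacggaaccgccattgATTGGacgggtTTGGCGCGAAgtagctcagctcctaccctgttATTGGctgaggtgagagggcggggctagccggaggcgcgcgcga
Cdc6 (chr11:98907981-98908180, plus strand): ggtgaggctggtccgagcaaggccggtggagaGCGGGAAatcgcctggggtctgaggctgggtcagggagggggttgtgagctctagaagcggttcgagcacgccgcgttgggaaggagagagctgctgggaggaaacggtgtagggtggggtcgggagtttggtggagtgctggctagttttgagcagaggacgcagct
Mcm2 (chr6:88898751-88898950, minus strand): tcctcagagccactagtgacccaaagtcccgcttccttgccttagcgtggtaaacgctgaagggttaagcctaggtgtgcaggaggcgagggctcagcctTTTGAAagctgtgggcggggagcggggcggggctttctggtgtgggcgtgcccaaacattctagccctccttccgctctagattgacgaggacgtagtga

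Since these genes were picked, what they hold is no support for a difference between the lists. *Mcm2* held a CHR and no E2F motif, and the promoters of *Ung*, *Tk1*, *E2f1* and *Ccne1*, not shown, held none of the 3 motifs in the same stretch. In *Hmmr*, *Ccnb2* and *Cenpf* a CHR began at positions 9, 5 and 3 from the start site, and in *Ube2c* it lay on the opposite strand 29 bases before it. The lists were searched over 300 bases, from 250 before to 50 after the start. The shares are of genes with a promoter, and a gene counted where any of its promoters held the motif. A CHR was found in 36 of 47 G2/M genes (76.6%) and in 6 of 31 S phase genes (19.4%). It was found in 21.7% of all 27025 genes with a promoter and 17.7% of the 14522 in the count table. An E2F motif was found in 20 of 31 S phase genes (64.5%) and 9 of 47 G2/M genes (19.1%). It was found in 9.20% of all genes with a promoter and 14.1% of those in the count table. The CCAAT box was common to both lists, at 71.0% of S phase and 76.6% of G2/M genes. It was found in 41.1% of all genes with a promoter and 42.0% of those in the count table. Of the 20 leading genes, 14 had a promoter in the table, and 10 of these held a CHR. *Birc5* and *Nusap1* held none of the 3 motifs in this window. These are matches of letters, not sites shown to be bound, and no test was made.

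Genes of basal identity stood near their level in other basal cells. None of 15 basal genes passed the 2-fold count (median 0.35). *Krt5*, a basal keratin, measured 725, 703 and 1073 CPM in WT/WT and 871, 835 and 642 CPM in MIS/MIS, against 459 CPM in the remaining basal cells and 11.4 CPM in Multiciliated2. *Krt15* averaged 4198 ± 672 CPM against 4134 CPM, *Krt14* 754 ± 316 CPM against 661 CPM, and *Ngfr*, a surface receptor of basal cells, 20.9 ± 6.34 CPM against 11.8 CPM. The basal keratins that define the type were present in all 6 mice. The 8 measured squamous and hillock genes had a median of -1.20, although none was 2-fold lower in every mouse. *Krt13*, a keratin of hillock cells, averaged 193 ± 287 CPM against 1179 CPM, with 770 CPM in WT/WT 1 and 11.6 to 137 CPM in the other 5 mice.

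Secretory transcripts were present beside the basal ones. *Bpifa1*, a secreted host-defence protein, was the 1 of 8 measured secretory genes that passed, at 4823, 5352 and 4518 CPM in WT/WT and 3561, 2486 and 3459 CPM in MIS/MIS, against 859 CPM in the remaining basal cells and 15035 CPM in Secretory1. *Cyp2f2*, a club cell cytochrome, averaged 3854 ± 317 CPM against 5713 CPM. Among 3 measured deuterosomal genes, used by cells that build many centrioles, *Plk4* and *Stil* passed, at 41.9 and 7.55 CPM, and both also serve the centriole cycle of dividing cells. The defining genes of that state were near 0, with *Ccno* at 1.90 CPM, *Deup1* at 0.42 CPM and *Mcidas* at 0.41 CPM, as were *Foxj1* of multiciliated cells (2.497 CPM), *Chga* of neuroendocrine cells (0.11 CPM) and *Foxi1* of ionocytes, *Ptprc* and *Cd3e* of leukocytes and *Col1a2* of fibroblasts (each 0 CPM). *Lyz2* of the immune list averaged 62.0 ± 64.9 CPM against 172 CPM, *Dcn* of the fibroblast list 53.4 ± 40.4 CPM against 25.3 CPM, and *Dclk1* of the tuft list 32.0 ± 9.83 CPM against 35.5 CPM.

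In single thinned Basal6 cells, *Krt5* and *Scgb3a2* were mostly apart at the numbers of UMIs set here. No other secretory gene was counted cell by cell. At least 3 *Krt5* UMIs were found in 59.5% of Basal6 cells, against 75.4% in Basal3 and 0.646% in Multiciliated3. At least 10 *Scgb3a2* UMIs, a number chosen after the data were seen because this secretoglobin is abundant, were found in 20.1% of Basal6 cells (10.96 to 26.1% by mouse), 6.31% of Basal3, 87.9% of Secretory1 and 0.874% of Multiciliated3. Of the 805 Basal6 cells, 448 (55.7%) passed for *Krt5* alone, 131 (16.3%) for *Scgb3a2* alone, 31 (3.85%) for both and 195 (24.2%) for neither. The median Basal6 cell held 6 *Krt5* and 1 *Scgb3a2* UMIs, so low secretory counts were common, and the shares depend on the numbers of UMIs set.

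With the cell-cycle genes left out, the Basal6 profile resembled Basal3 and Basal2 most. The Pearson correlation across 11320 genes, which are not independent, averaged 0.972 over the 6 mice with Basal3, 0.970 with Basal2, 0.959 with Secretory2 and 0.826 with Multiciliated2, and the first 2 lay within each other's spread. Each thinned Basal6 cell was also given the cluster whose mean profile over 1000 genes it resembled most, a step added after the data were seen. These 1000 genes left out the cell-cycle lists, histone genes and mitochondrially encoded genes. They also left out the 459 genes counted above as higher in Basal6 than in the remaining basal cells, *Bpifa1* among them. Genes counted as higher in Basal6 than in other basal cells thus had no weight in the match. The 45 counted as lower were not left out on that ground. The closest clusters below therefore hold for the genes kept, and likeness to basal clusters is favoured by this choice. Basal3 was the closest for 52.2% of cells (34.5 to 62.8% by mouse), Secretory2 for 18.4% (6.83 to 27.1%) and Basal2 for 9.69% (1.53 to 28.6%). A basal cluster was closest for 78.5% and a secretory cluster for 21.0%. Single mice departed from this. Basal4 was closest for 21.8% of the cells of WT/WT 1, in which Basal4 made up 37.6% of all other cells. Basal2 was closest for 28.6% of the cells of MT1383, in which Basal2 made up 19.8% of all other cells. When up to 300 cells of each other cluster were matched in the same way, 93.7% of Basal3 cells, 73.0% of Secretory2 cells and 71.0% of Basal2 cells returned to their own cluster. Basal1 (63.7%) and Multiciliated1 (51.3%) returned less often. These cells had entered the profiles they were matched to, which favours their own cluster, so the rates are no accuracy for Basal6 cells. The smaller shares are imprecise.

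**Figure D4:**
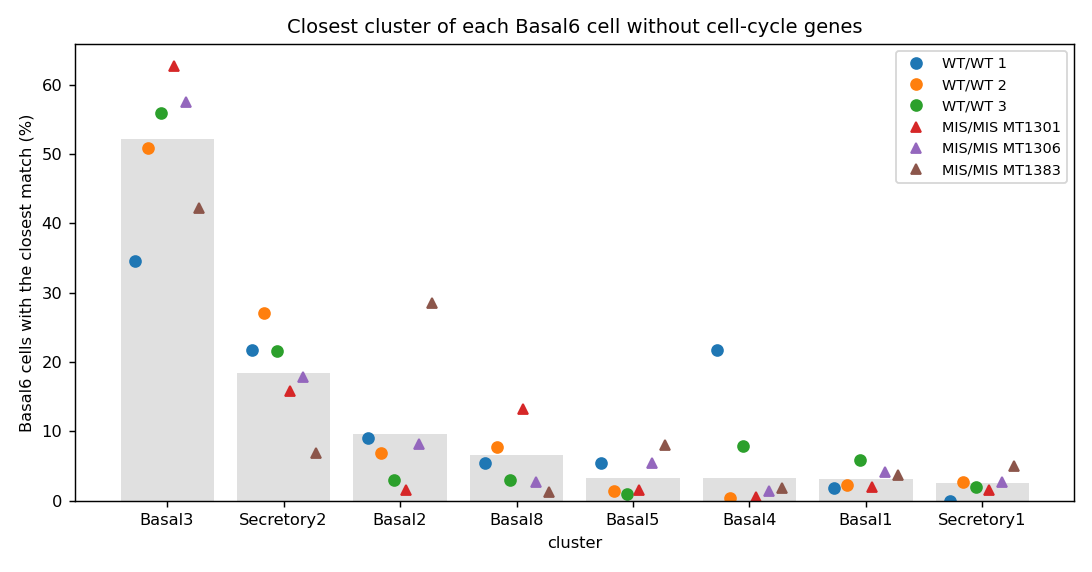
Share of Basal6 cells with each cluster as the closest match, in percent, with grey bars for all 805 cells and 1 point per mouse. Cell-cycle genes and all genes counted as higher in Basal6 than in the remaining basal cells were left out. Basal3 leads in every mouse, and Secretory2 or Basal2 follows in all but WT/WT 1, where Secretory2 and Basal4 are level at 21.8%.

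The genes outside the lists whose pattern was most like that of *Mki67* were *Cdkn3* (Pearson r = 0.962), *Troap* (0.958), *Iqgap3* (0.953), *Gm3550* (0.944) and *Aspm* (0.943). The correlation was taken over 92 means of a mouse and a cluster on the log2 scale. Clusters of 1 mouse share a library, and the value rests on Basal6 against the rest, so it is given as a description with no p. *Cdkn3*, a phosphatase of CDKs, averaged 78.4 ± 21.6 CPM in Basal6, and *Iqgap3*, a scaffold of the cell cortex, 27.7 ± 9.50 CPM. Multiciliated2, the cluster next to Basal6 for all of them, shared part of the program: its summed G2/M level was 6322 CPM and its *Cdk1* level 286 CPM, but its *Mcm5* level was 2.69 CPM and its *Mki67* level 8.22 CPM.

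The last comparison asked whether cycling basal cells differed between the genotypes. Basal6 made up 1.94, 4.62 and 3.68% of all cells in WT/WT and 4.91, 2.73 and 2.44% in MIS/MIS, a mean of 3.41% ± 1.36 (SD, n = 3) against 3.36% ± 1.35 (n = 3), and a two-sided exact permutation test of the mice gave p = 1. Of basal cells it made up 3.00, 11.8 and 6.73% against 10.9, 5.96 and 5.78% (7.18% ± 4.42 against 7.54% ± 2.89, exact permutation p = 1). The 95% Wilson interval was 2.31 to 3.88% for WT/WT 1, the lowest mouse, and 10.4 to 13.3% for WT/WT 2, the highest, and covers counting error only. The spread within WT/WT was therefore wider than counting error, and the genotypes overlapped. Leaving out 1 mouse moved the difference in the share of all cells between -0.826 and 0.554 percentage points, so its sign rested on single mice. With 3 mice a group the smallest p this test allows is 0.1.

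The summed S phase list stood at 2682, 2516 and 2822 CPM in WT/WT and 2866, 2958 and 2809 CPM in MIS/MIS, a difference of 205 CPM between means of 2673 ± 153 and 2878 ± 75.3 CPM (exact permutation p = 0.2). The groups overlapped, by the values of WT/WT 3 and MT1383. The summed G2/M list averaged 9038 ± 1432 CPM in WT/WT and 8517 ± 1387 CPM in MIS/MIS (exact permutation p = 0.7). The share of cells with more G2/M than S phase UMIs averaged 69.2% ± 2.08 and 65.4% ± 8.08 (exact permutation p = 0.6). Adjusted over these 5 measures every p was 1. The share of Basal6 cells in cluster 14 was 67.3, 58.9 and 68.6% in WT/WT and 62.6, 57.5 and 71.3% in MIS/MIS (exact permutation p = 0.9). In such sums, more cells in a phase and more RNA in each of them cannot be told apart.

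**Figure D5:**
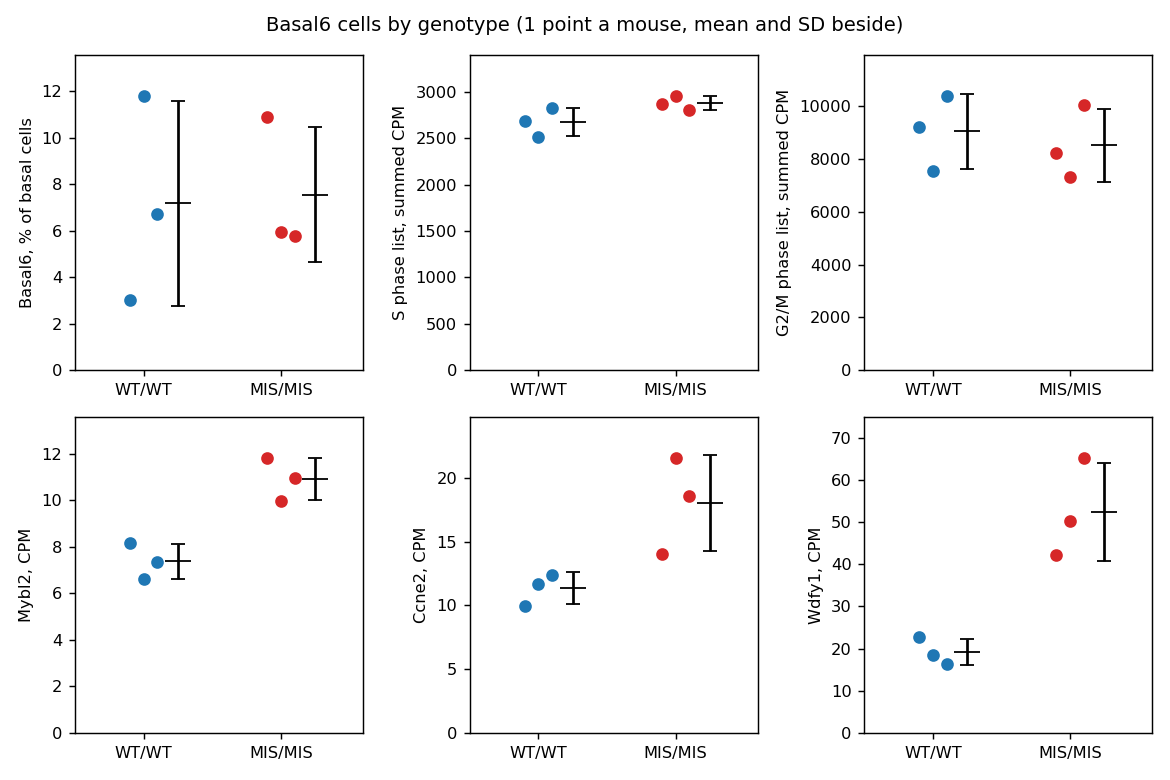
Basal6 as a percentage of basal cells, the summed S phase and G2/M lists in CPM, and *Mybl2*, *Ccne2* and *Wdfy1* in CPM, by genotype, with 1 point for each mouse and the mean and SD beside them. The first 3 measures overlap between WT/WT and MIS/MIS. The 3 genes were drawn from those without overlap, so their separation follows from the choice. In this direction 538 of 10981 genes did not overlap. *Wdfy1* is 16.5 to 22.6 CPM in WT/WT and 42.2 to 65.1 CPM in MIS/MIS, and none of the 3 genes passed the threshold.

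Gene by gene, limma with voom weights on the sums per mouse called 0 of 10981 genes (0%) at an adjusted p under 0.05. At an unadjusted p under 0.05 it found 467, and limma-trend and voom with sample weights also called 0, with 455 and 477 at the unadjusted level. *Dnaaf5* itself (chr5:139150223-139186510, plus strand, GRCm38) stood at 8.60, 3.17 and 6.33 CPM in WT/WT and 7.37, 5.30 and 8.82 CPM in MIS/MIS (log2 fold change 0.61, SE 0.34, limma adjusted p = 0.998). A missense allele leaves the transcript in place, so this level does not check the labels. The log2 fold changes of the 5 markers were -0.28 for *Mki67* (SE 0.15), -0.01 for *Ube2c* (SE 0.20), -0.03 for *Birc5* (SE 0.15), -0.06 for *Nusap1* (SE 0.18) and -0.32 for *Hmmr* (SE 0.19), none past the threshold.

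Every MIS/MIS mouse lay above every WT/WT mouse for 538 of the 10981 genes (4.90%) and below for 535 (4.87%). Of 43 S phase genes, 10 lay above and 0 below, with a median log2 fold change of 0.11 where that of all genes was 0.0015, but none passed the threshold and 3 had an unadjusted p under 0.05. The 10 were *Mcm6*, *Exo1*, *Cdca7*, *Wdr76*, *Ccne2*, *Rfc2*, *Rad51ap1*, *Blm*, *Ubr7* and *Dscc1*, whose limma adjusted p was 0.998 each. Of 54 G2/M genes, 0 lay above or below, with a median of -0.05 and 1 at an unadjusted p under 0.05. Over all lists, which hold 351 genes, not all of them tested, 17 genes lay above and 4 below. The share above is thus near the 4.90% of all genes, and the share below is under the 4.87% of all genes. The 4 below were *Zwint*, *Pmf1* of the kinetochore and the clamp loader subunit *Rfc4*, each at -0.13 on the log2 scale, and *Bpifa1* (-0.64). Beside the 10 S phase genes, those above were *Mybl2*, *Ccne1*, *Cdc7*, *Pold1*, *E2f7*, *Ccnd3* and *Ltf*, at log2 fold changes of 0.19 to 0.69. None of the 21 passed the threshold. The genes given by mouse next were chosen after their values were seen. *Ccne1*, the other cyclin E, measured 24.9, 13.1 and 18.7 CPM in WT/WT and 26.4, 29.0 and 26.7 CPM in MIS/MIS (log2 fold change 0.69, SE 0.19), and *Ccne2* 9.96, 11.7 and 12.4 CPM against 14.01, 21.5 and 18.6 CPM (0.53, SE 0.20). *Mybl2* measured 8.15, 6.62 and 7.34 CPM against 11.8, 9.98 and 10.97 CPM (0.63, SE 0.18). All 3 were higher in every MIS/MIS mouse and had a limma adjusted p of 0.998.

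Of the 5 genes in each direction with the lowest p among those without overlap, none passed either. *Wdfy1*, which encodes an endosomal adaptor protein (chr1:79702262-79776143, minus strand), was 22.6, 18.4 and 16.5 CPM in WT/WT and 42.2, 50.2 and 65.1 CPM in MIS/MIS (log2 fold change 1.44, SE 0.19, limma adjusted p = 0.343). In the remaining basal cells it averaged 22.2 CPM and 74.9 CPM in the same order, and earlier results of these data had already shown it. The others that stood higher were *Aunip* (0.89), *Casp1* (1.02), *Hdgfl3* (0.74) and *Smad6* (0.86 on the log2 scale), at a limma adjusted p of 0.998 each. *Aunip*, a partner of the mitotic kinase Aurora A, measured 11.8, 10.2 and 10.1 CPM in WT/WT and 17.6, 19.95 and 23.1 CPM in MIS/MIS, and on average 0.0340 and 0.0184 CPM in the remaining basal cells of each. It was thus the cell-cycle gene among the 10.

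The 5 that stood lower were *Acsm1* (-0.81), *Gm47283* (-5.21), *Ptgr1* (-0.72), *Hpgd* (-3.00) and *Pon1* (-1.18), with limma adjusted p of 0.757 for the first 3 and 0.998 for the others. *Ptgr1* and *Hpgd* encode enzymes that inactivate prostaglandins, and *Ptgr1* measured 78.3, 71.1 and 69.9 CPM in WT/WT and 38.7, 42.7 and 53.9 CPM in MIS/MIS. *Gm47283* was 53.4, 103 and 165 CPM in WT/WT and 2.09, 22.4 and 0.715 CPM in MIS/MIS. GENCODE places it on the Y chromosome (chrY:90784738-90816464, GRCm38), where *Ddx3y* lay between 50.1 and 69.5 CPM in all 6 mice. Whether its reads are shared with similar sequences elsewhere was not tested.

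The genotype effect in Basal6 was also set against that in the remaining basal cells of the same mice, as the difference of log2 CPM within each mouse. By limma-trend 0 of 10926 genes (0%) differed at an adjusted p under 0.05, and 601 did at an unadjusted p under 0.05. The lowest p was that of *Hp*, the haptoglobin gene, with a difference of -1.19 on the log2 scale (limma adjusted p = 0.354). It passed the threshold with cells thinned to 10000 UMIs, where it was the 1 gene called, and without WT/WT 2, where 3 genes were. Without WT/WT 3 or MT1301, 1 other gene was called each time. By p, *Serpinb2* came next (a difference of 2.32, limma adjusted p = 0.354), then *Bpifa1*, then *Krt6a* (1.99, limma adjusted p = 0.426). In Basal6 *Bpifa1* averaged 4898 ± 422 CPM in WT/WT and 3169 ± 593 CPM in MIS/MIS. In the remaining basal cells it averaged 543 CPM and 1174 CPM, a difference of -1.69 on the log2 scale (limma adjusted p = 0.426). The direction of the *Bpifa1* mean thus differed between both populations, without passing the threshold. The remaining basal cells pool clusters whose shares differed by mouse. Basal4, for example, made up 37.6% of all cells outside Basal6 in WT/WT 1 and 0.0433% in WT/WT 2. The part of this mix in the differences was not tested.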

How the data were processed

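Cells of tracheal ALI cultures, from 3 mice of each genotype, were profiled by droplet 3′ scRNA-Seq. The authors used Cell Ranger (version 7.1.0 and build mm10 in the submitters' processing notes, an older version in the study's methods) and Seurat. They deposited UMI counts of every gene in every cell, not normalized, and a second table that names the clusters. A mistyped tab stands between the values of the first table, which was read accordingly. All values were whole, and the total of each of 23871 cells equalled that of the authors' cell table. The 3 libraries MT1301, MT1306 and MT1383 are numbered unlike any sample title and therefore entered as unnumbered replicates of MIS/MIS. Each library is 1 mouse.

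The values are whole counts and a count model could have been fitted. Since the unit of the table had been entered as other, on account of its separator, none was, and limma 3.58.1 in R 4.3.3 was used with voom weights, TMM factors (trims of 0.3 and 0.05) and Benjamini-Hochberg adjusted p-values at 0.05. Genes were kept at 10 counts in a library of median size in 3 mice and a total of 15. The sums held 2201307 to 8113135 UMIs on the genes tested, and the median SD between mice of a genotype was 0.20 (log2). Single cells were thinned to 10000 UMIs. Promoters came from the RefSeq table (GRCm38.p6) and gene positions from GENCODE, in Python 3.11.15. Members and gene lists were chosen with earlier results of these data known. Named genes were the 5 markers, the highest and lowest members of each list, the 20 leading genes, the 5 genes most like *Mki67*, the 5 lowest p without overlap in each direction, *Dnaaf5* and *Wdfy1*. Others are said to be chosen after their values were seen, were those that did or did not pass a count, or were named outside these rules. Alternatives were another normalization, other filters and fits, thinned or filtered cells, and leaving out each mouse.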

Additional observations from a re-analysis of the deposited data

How the results depend on the processing

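The gene count in Basal6 stayed at 0 under all 13 alternatives. Set against the remaining basal cells, 1 gene passed with cells thinned to 10000 UMIs (*Hp*), and leaving out 1 mouse gave 0 to 3 genes: 3 without WT/WT 2 (*Ecm1*, *Hmox1* and *Hp*), 1 without WT/WT 3 (*U90926*) and 1 without MT1301 (*Scgb3a2*). The cause was not tested. Without 1 mouse the MIS/MIS minus WT/WT difference ran from -0.826 to 0.554 percentage points for the share of all cells, from -1.72 to 2.68 for the share of basal cells and from -6.73 to 0.815 for the share of cells with more G2/M UMIs. It ran from -1274 to 154 CPM for the G2/M list and from 126 to 279 CPM for the S phase list. The sign turned for the share of all cells without WT/WT 2 (0.554), WT/WT 3 (0.0826), MT1306 (0.265) or MT1383 (0.408), for the share of basal cells without WT/WT 1 (-1.72) or MT1301 (-1.30), for the G2/M list without WT/WT 3 (154 CPM) or MT1306 (90.04 CPM), and for the share of cells with more G2/M UMIs without MT1306 (0.815). The S phase list kept its direction. With 2 mice left in a group the smallest p of the permutation test is 0.1. The 11 genes followed in all fits kept their direction in all 140 values, 0 of them past the threshold, with the lowest adjusted p at 0.0773 for *Wdfy1*, and *Dnaaf5* ran from 0.035 to 0.78 on the log2 scale. No paired analysis was possible because MT1301, MT1306 and MT1383 are numbered unlike any sample title. The share of Basal6 cells in the finer cluster 14 was compared after the data were seen.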
